A study of Mus musculus with 9 samples.

Results

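Iron handling in an LPS-treated macrophage line was followed through 10 genes. They code for the ferritin subunits (Fth1, Ftl1), the ferritin cargo receptor (Ncoa4), importers and a ferric reductase (Tfrc, Slc11a2, Steap3), a phagosomal transporter (Slc11a1), the iron exporter ferroportin (Slc40a1), the siderophore-binding lipocalin 2 (Lcn2) and iron regulatory protein 2 (Ireb2). Members were the rows of the deposited FPKM table whose Ensembl identifier carries one of these symbols in GENCODE M21, and all 10 were found among 28137 identifiers. FPKM is the number of fragments of a gene scaled to its length and to the size of the library.

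The 9 libraries were made from RAW264.7 cells, a mouse monocyte-macrophage leukaemia line, with 3 libraries labelled NC siRNA (the control siRNA, here NC), 3 labelled SFRP2 siRNA and 3 labelled RAB6A siRNA. According to the labels, all cells received 60 nM of siRNA with a lipid reagent for 6 h, then complete medium for 12 h, and then 100 ng/ml of lipopolysaccharide (LPS), with RNA taken after 24 h. The study's methods give a lower siRNA dose and a longer time in fresh medium, and also name interferon-γ, which the labels do not. Library titles end in 6H, which the labels do not explain. No library without LPS or without siRNA was analysed here, so each difference is between siRNAs in stimulated cells of a single line. The labels do not say whether the 3 libraries of a group are separate cultures, nor whether the libraries of the SFRP2 siRNA group received the same siRNA. The p-values therefore weigh differences against a spread between libraries that may be technical. The question of the design was what knockdown of SFRP2, a secreted regulator of Wnt signaling, does to inflammatory macrophages. RAB6A is a small GTPase of Golgi traffic.

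Recovered totals were between 32758728 and 47149256 reads per library. Rab6a had a mean of 25.7 ± 1.48 FPKM (SD, n = 3) in NC, 27.0 ± 1.45 in the SFRP2 siRNA group and 20.7 ± 0.445 in the RAB6A siRNA group. It was thus lower in the RAB6A siRNA group by 0.31 on the log2 scale (adjusted p = 0.0024, limma). Of all genes tested, 73.3% had a larger absolute log2 fold change than this targeted gene. Sfrp2 was near the limit of detection, with 2 to 4 reads in every library of every group, so its knockdown could not be checked at this depth. Of 8 macrophage markers, 7 had a mean of at least 0.5 FPKM, while Mertk was close to 0. Their summed level was 2837 to 3114 FPKM in NC, 2502 to 2760 in the SFRP2 siRNA group and 1967 to 2127 in the RAB6A siRNA group. Against NC, Lyz2, Csf1r and Fcgr1 were lower in every RAB6A siRNA library, Ptprc was higher and the other 4 overlapped. All 6 LPS response markers were expressed, with sums of 4329 to 4616 FPKM in NC, 4059 to 4245 in the SFRP2 siRNA group and 2461 to 2635 in the RAB6A siRNA group. Acod1, Tnf and Il6 were lower in every RAB6A siRNA library than in NC, Ptgs2 and Il1b were higher, and Nos2 overlapped. Markers of T cells, B cells, epithelium, fibroblasts, endothelium and erythroid cells summed to at most 9.83 FPKM in any library, with 2 of these 19 markers not listed. Both sums were thus lower than in NC in every RAB6A siRNA library and, by less, in every SFRP2 siRNA library, though not all of their markers were. Adgre1, Cd68, Fcgr1, Acod1, Ptgs2 and Il1b, and Mertk near 0, were lower in every SFRP2 siRNA library than in NC. The other markers of both lists overlapped there. Groups did not overlap for 24.7% of all genes tested with SFRP2 siRNA and 77.4% with RAB6A siRNA. The part of these shifts in the results on iron genes was not tested. In bulk RNA, fewer cells of a type and less RNA per cell cannot be told apart.

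Cells take up iron mostly as transferrin, which enters through the transferrin receptor and releases its iron in endosomes, where it is reduced and carried to the cytosol. Surplus iron is stored inside ferritin shells built of heavy and light chains, is released again when ferritin is delivered to lysosomes, or leaves the cell through ferroportin. Macrophages are the main recyclers of iron from old red blood cells, and during infection they withhold it from microbes. Iron regulatory proteins tie these steps together. They bind a short hairpin, the iron-responsive element (IRE), when iron is scarce. At an IRE in the 5′ UTR they block translation, and at IREs in the 3′ UTR of the transferrin receptor they stabilise the mRNA. RNA-seq reads the amount of mRNA and not its translation.

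The IRE hairpins are shown because they link the ferritins, ferroportin and the transferrin receptor in sequence. IREs belong to the control of iron handling, so finding them in a list of iron genes is not an independent result. Transcripts of GENCODE M21 (GRCm38) were searched on the sense strand for a C, a stem of 5 bases, the loop CAGTGN with a last base other than G, and the 5 pairing bases, with at most 1 G-T pair. This motif was present in a UTR of 4 of the 10 members, in 7 elements. Among 21901 protein-coding genes it was found in the 5′ UTR of 11 (0.0502%) and in the 3′ UTR of 38 (0.174%). Each element is printed 5′ to 3′ on the gene's strand as 27 bases, with 5 flanking bases on the left and right of the motif and the loop in capitals.
Fth1, 5′ UTR: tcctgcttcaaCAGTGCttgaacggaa
Ftl1, 5′ UTR: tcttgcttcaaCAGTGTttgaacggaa
Slc40a1, 5′ UTR: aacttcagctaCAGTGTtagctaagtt
Tfrc, 3′ UTR, element 1: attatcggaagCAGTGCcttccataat
Tfrc, 3′ UTR, element 2: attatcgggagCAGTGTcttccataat
Tfrc, 3′ UTR, element 3: tatatcggagaCAGTGAtctccatatg
Tfrc, 3′ UTR, element 4: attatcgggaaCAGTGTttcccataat

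The Fth1 element lies at chr19:9982733-9982759 on the + strand, in 4 of 5 protein-coding transcripts of the gene. That of Ftl1 lies at chr7:45459780-45459806 on the - strand and that of Slc40a1 at chr1:45925466-45925492 on the - strand, both in exon 1. They are in 1 of 2 protein-coding transcripts of Ftl1 and in 1 of 4 of Slc40a1. The 4 elements of Tfrc lie on the + strand in exon 19 of 1 of 3 protein-coding transcripts, at chr16:32631220-32631246, chr16:32631599-32631625, chr16:32631664-32631690 and chr16:32631711-32631737. FPKM per gene does not separate transcripts with and without an element. A match to the letters is a description of the sequence and not a measurement of binding. No motif of this form was found in the UTRs of Ncoa4, Slc11a2, Steap3, Slc11a1, Lcn2 and Ireb2, which says only that these letters are not there. The search allowed no mismatch or bulge in the stem, so elements of another form would be missed in any of these genes.

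In NC cells the members spanned a wide range of levels per length. Fth1 was by far the most abundant, at 3325 FPKM, rank 11 of 24360 genes above 0, and Slc40a1 was the lowest, at 1.08 FPKM. The order from high to low was Fth1, Ftl1, Tfrc, Lcn2, Slc11a2, Slc11a1, Ireb2, Ncoa4, Steap3 and Slc40a1, and the ranges of neighbours did not overlap. The SFRP2 siRNA group had the same order. In the RAB6A siRNA group Lcn2 stood above Tfrc, and Slc40a1 stood above Ncoa4 and Steap3, with overlapping ranges between Slc40a1 and Ncoa4. Reads of Fth1 made up 1.08 to 1.20% of a library in NC, 0.980 to 1.12% in the SFRP2 siRNA group and 1.55 to 1.71% in the RAB6A siRNA group.

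**Figure D1:**
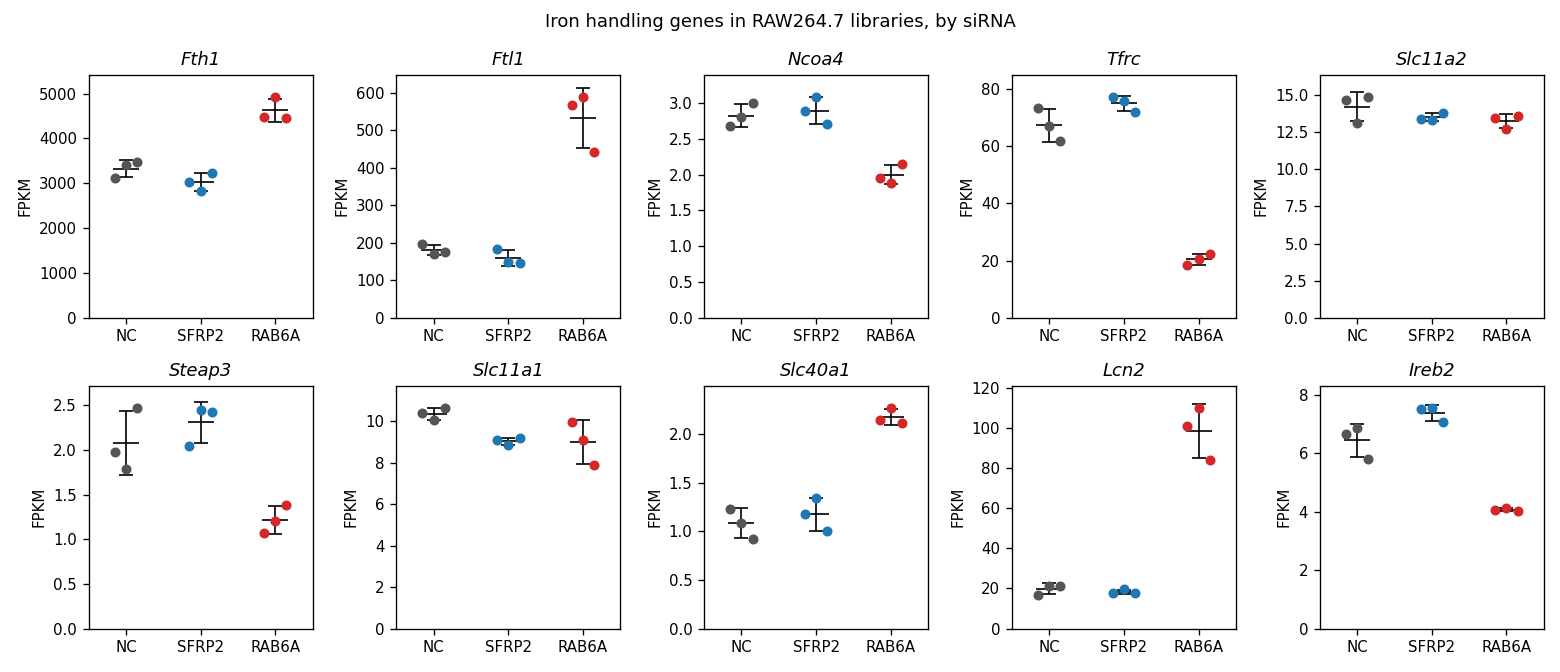
FPKM of the 10 iron handling genes in each library (points), with the mean and SD of 3 libraries (black bars), for NC, SFRP2 and RAB6A siRNA; axes are linear and start at 0. Tfrc, Steap3, Ireb2 and Ncoa4 are lowest in the RAB6A siRNA libraries, while Fth1, Ftl1, Slc40a1 and Lcn2 are highest there.

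The RAB6A siRNA group was compared with NC first. Of the 10 members, 8 were called at an adjusted p under 0.05 (limma on log2(FPKM + 0.1), Benjamini-Hochberg over 12712 genes), against 74.1% of all genes tested. Storage, export and siderophore-binding genes (Fth1, Ftl1, Slc40a1, Lcn2) were higher, 4 members against 37.6% of all genes, and uptake, ferritin turnover and regulatory genes (Tfrc, Steap3, Ncoa4, Ireb2) were lower, 4 members against 36.5%. With the added criterion of an absolute log2 fold change over 1, used in the study's methods for DEGs, 3 members passed (Lcn2, Ftl1 and Tfrc), against 30.1% of all genes. The libraries of both groups did not overlap for 9 members, against 77.4% of all genes. In absolute log2 fold change, the median was 0.68 over the members and 0.63 over all genes. Counts of changed members were therefore close to the background among genes above the filter, most of which differed in this comparison.

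Among the storage genes, Fth1 (ENSMUSG00000024661, chr19:9980598-9985098) codes for the heavy chain of ferritin, which oxidises iron as it enters the shell. Its levels were 3111, 3399 and 3465 FPKM in NC, 3020, 2825 and 3224 in the SFRP2 siRNA group and 4488, 4926 and 4465 in the RAB6A siRNA group. All RAB6A siRNA libraries were above all others. Fth1 was 1.39-fold higher than in NC, a log2 fold change of 0.48 (95% interval 0.24 to 0.71, adjusted p = 0.0033, limma). The call was lost without a filter on low values (adjusted p = 0.21), and over all alternatives the adjusted p was between 2.7e-05 and 0.21.

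Ftl1 (ENSMUSG00000050708, chr7:45457944-45459884) codes for the light chain, which helps the shell form its mineral core. It was measured at 196, 169 and 176 FPKM in NC, 184, 148 and 145 in the SFRP2 siRNA group and 567, 589 and 441 in the RAB6A siRNA group. The RAB6A siRNA libraries stood far above the others, without overlap. The change against NC was 2.93-fold, a log2 fold change of 1.55 (95% interval 1.27 to 1.83, adjusted p = 1.9e-05, limma). Of the 50-base windows of Ftl1 transcripts, 86.2% also occur in transcripts of other genes, so reads of Ftl1 and of its copies could be split by the counting. Of 17 genes that share windows with Ftl1, 7 entered the sum, and these held 3.81 to 9.72% of the summed reads. The ratio of the RAB6A siRNA group to NC, in reads as a share of the library, was 2.95 for Ftl1 alone and 2.86 for the sum. Any reads that the counting left out because they match several genes are in neither value, so the level of Ftl1 may be too low. Of the annotated ferritin copies that passed the filter, Ftl1-ps1 had 8.92 ± 1.18 FPKM in NC and 20.8 ± 4.29 in the RAB6A siRNA group, a log2 fold change of 1.20 (adjusted p = 3.7e-04, limma). It shares 675 of the 968 windows of Ftl1, so its reads may come from Ftl1 and its change is not an independent result. Fth-ps2 was at 0.204 ± 0.0770 and 2.52 ± 0.818 FPKM and passed the filter only through the RAB6A siRNA group, so no test is given for it.

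To compare the mRNAs of both ferritin chains, the ratio of Fth1 to Ftl1 was taken in each library. Any loss of Ftl1 reads to shared windows would raise this ratio, so its absolute size is uncertain. It was 15.8, 20.2 and 19.7 in NC, 16.5, 19.1 and 22.2 in the SFRP2 siRNA group and 7.92, 8.37 and 10.1 in the RAB6A siRNA group. The ratio was lower in every RAB6A siRNA library than in any other, with a mean of 8.81 ± 1.17 (SD, n = 3) against 18.6 ± 2.36 in NC. The exact two-sided permutation test gave p = 0.1 for this difference, the smallest that 3 libraries against 3 allow (Benjamini-Hochberg adjusted p = 0.15 over 6 tests of ratios). The size of the difference depended on the processing, since the log2 fold change of Ftl1 exceeded that of Fth1 by 1.07 in the limma fit, by 0.38 with a correction for GC content and length and by 0.49 with quantile normalization.

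Ncoa4 (ENSMUSG00000056234, chr14:32159865-32179855) codes for the receptor that takes ferritin to the lysosome. Its levels were 2.67, 2.80 and 3.00 FPKM in NC, 2.89, 3.08 and 2.71 in the SFRP2 siRNA group and 1.95, 1.89 and 2.15 in the RAB6A siRNA group. Thus Ncoa4 was low in all RAB6A siRNA libraries and overlapped between the other groups. Against NC it fell by 0.48 on the log2 scale, or 1.39-fold (95% interval -0.70 to -0.26, adjusted p = 0.0024, limma). The call was lost when values were corrected for GC content and length (log2 fold change -0.21, adjusted p = 0.059), and over all alternatives the adjusted p was between 9.4e-05 and 0.084. Of its 50-base windows, 39.1% are shared with Gm6768, and the ratio to NC in reads as a share of the library was 0.707 for Ncoa4 alone and 0.679 with Gm6768 added.

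Among the uptake genes, Tfrc (ENSMUSG00000022797, chr16:32608920-32632794) codes for the transferrin receptor, the main route of iron into most cells. It was expressed at 73.4, 66.9 and 61.7 FPKM in NC, 77.3, 75.7 and 72.1 in the SFRP2 siRNA group and 18.6, 20.4 and 22.3 in the RAB6A siRNA group. The RAB6A siRNA libraries were all far below the other 6. Tfrc was 3.29-fold lower than in NC, having dropped by 1.72 on the log2 scale (95% interval -1.93 to -1.51, adjusted p = 3.8e-06, limma). Only 12.5% of the genes tested had a larger absolute log2 fold change. This is the only member in which the search found the motif in the 3′ UTR, in the 4 elements printed above. The search could miss elements of another form, here and in other members. The ferritin and ferroportin mRNAs, with the motif in the 5′ UTR, were higher. Whether IREs have a part in these mRNA levels was not tested. In the list of other iron genes described further on, the same search found the motif in the 5′ UTR of Alas2, which was below the filter, and in the 3′ UTR of Bola3, which was higher with RAB6A siRNA (log2 fold change 0.58, adjusted p = 5.5e-04, limma). Alas2 and Bola3 were named here after their values were seen, and whether their motifs act in these cells was not tested.

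The ratio of Tfrc to Fth1, a receptor and a storage mRNA, was 0.0236, 0.0197 and 0.0178 in NC, 0.0256, 0.0268 and 0.0224 in the SFRP2 siRNA group and 0.00414, 0.00414 and 0.00499 in the RAB6A siRNA group. It was 4.61-fold lower in the RAB6A siRNA group than in NC without overlap (exact permutation p = 0.1, adjusted p = 0.15). The SFRP2 siRNA and NC libraries overlapped (exact permutation p = 0.2, adjusted p = 0.24).

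**Figure D2:**
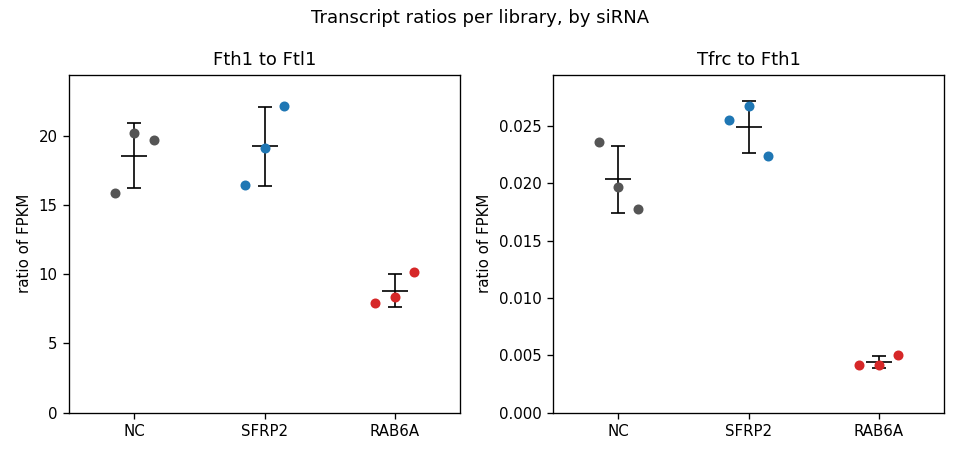
Ratio of Fth1 to Ftl1 FPKM (left) and of Tfrc to Fth1 FPKM (right) in each library (points), with the mean and SD of 3 libraries (black bars), for NC, SFRP2 and RAB6A siRNA. The RAB6A siRNA libraries lie below all others in both panels, at 7.92 to 10.1 and at 0.00414 to 0.00499.

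Slc11a2 (ENSMUSG00000023030, chr15:100387898-100425072) codes for DMT1, which carries ferrous iron out of endosomes. Its 14.7, 13.1 and 14.9 FPKM in NC overlapped with 13.4, 13.3 and 13.8 in the SFRP2 siRNA group and 13.5, 12.7 and 13.6 in the RAB6A siRNA group. All 3 groups overlapped. Against NC the log2 fold change was -0.10 (95% interval -0.26 to 0.06, adjusted p = 0.23, limma). Its direction turned to 0.19 with a correction for GC content and length (adjusted p = 0.025), and over all alternatives the adjusted p was between 0.023 and 0.99.

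Steap3 (ENSMUSG00000026389, chr1:120190757-120272705) codes for the reductase that turns ferric into ferrous iron in endosomes. Its levels were low, at 1.98, 1.79 and 2.47 FPKM in NC, 2.05, 2.45 and 2.42 in the SFRP2 siRNA group and 1.07, 1.20 and 1.38 in the RAB6A siRNA group. Every RAB6A siRNA library was below every other library. Steap3 decreased by 0.72 on the log2 scale against NC, or 1.65-fold (95% interval -1.09 to -0.35, adjusted p = 0.0040, limma). Thus the receptor and the reductase of transferrin-bound iron were lower, while no change of the transporter that follows them was called.

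For transport out of the phagosome, Slc11a1 (ENSMUSG00000026177, chr1:74375195-74386062) codes for NRAMP1, which removes divalent metals from compartments that hold microbes. It was at 10.4, 10.1 and 10.6 FPKM in NC, 9.07, 8.85 and 9.17 in the SFRP2 siRNA group and 9.97, 9.09 and 7.86 in the RAB6A siRNA group. The NC libraries were above all others, and the RAB6A siRNA libraries were the most spread. The log2 fold change of the RAB6A siRNA group was -0.21 (95% interval -0.43 to 0.003, adjusted p = 0.068, limma), which is not called. It was called in 3 of 18 alternatives, among them the fit without RAB6A siRNA replicate 1 (adjusted p = 0.020), and the adjusted p ranged from 0.020 to 0.47.

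Slc40a1 (ENSMUSG00000025993, chr1:45908068-45926523) codes for ferroportin, the only known iron exporter of mammalian cells. Its values were 1.23, 1.09 and 0.925 FPKM in NC, 1.18, 1.35 and 1.00 in the SFRP2 siRNA group and 2.15, 2.27 and 2.12 in the RAB6A siRNA group. It remained a low-level transcript in all groups, with 314 to 773 reads per library, and was higher in all RAB6A siRNA libraries. The change against NC was 1.94-fold, a log2 fold change of 0.95 (95% interval 0.65 to 1.26, adjusted p = 3.6e-04, limma).

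Lcn2 (ENSMUSG00000026822, chr2:32384633-32388252) codes for a secreted protein that binds bacterial siderophores and so denies microbes iron. It was at 16.7, 21.3 and 21.4 FPKM in NC, 17.8, 19.5 and 17.8 in the SFRP2 siRNA group and 101, 110 and 83.9 in the RAB6A siRNA group. No other member moved as far, and the RAB6A siRNA libraries were all well above the rest. Lcn2 was 4.95-fold higher than in NC, a log2 fold change of 2.31 (95% interval 2.00 to 2.61, adjusted p = 4.8e-06, limma). Of all genes tested, 6.35% had a larger absolute log2 fold change.

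Ireb2 (ENSMUSG00000032293, chr9:54863789-54912530) codes for one of the iron regulatory proteins that bind IREs. Its values were 6.65, 6.88 and 5.81 FPKM in NC, 7.51, 7.56 and 7.06 in the SFRP2 siRNA group and 4.06, 4.13 and 4.02 in the RAB6A siRNA group. The groups did not overlap, with the SFRP2 siRNA libraries highest and the RAB6A siRNA libraries lowest and tightly grouped. Against NC, Ireb2 fell by 0.65 on the log2 scale in the RAB6A siRNA group, or 1.57-fold (95% interval -0.84 to -0.46, adjusted p = 2.1e-04, limma).

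**Figure D3:**
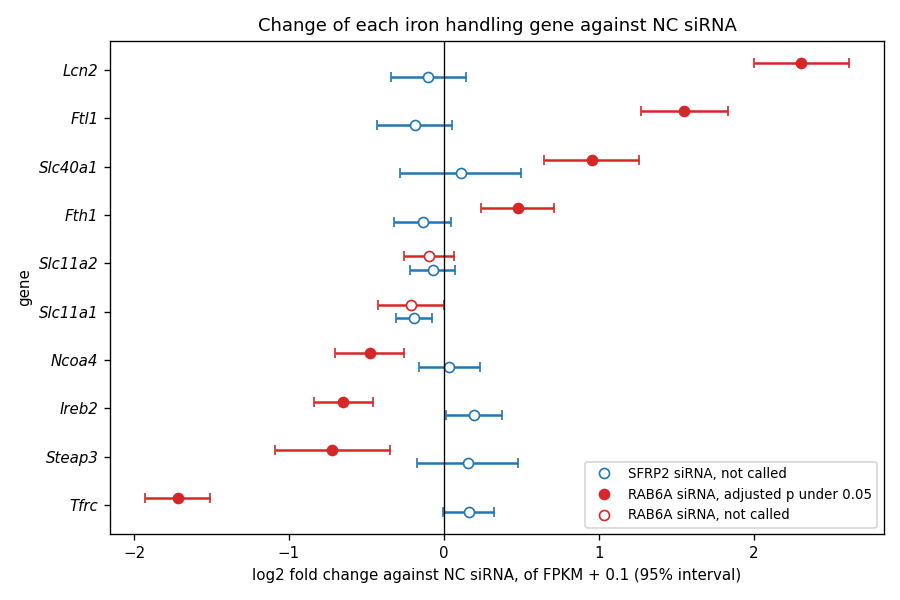
Log2 fold change of each iron handling gene against NC, on the log2(FPKM + 0.1) scale, for SFRP2 siRNA (blue) and RAB6A siRNA (red), with 95% intervals from limma; filled points have an adjusted p under 0.05. Changes with RAB6A siRNA run from -1.72 (Tfrc) to 2.31 (Lcn2), and those with SFRP2 siRNA from -0.20 to 0.19, none of them called.

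SFRP2 siRNA was then compared with the same NC libraries. None of the 10 members was called at an adjusted p under 0.05 with limma, and neither was any of the 12017 genes tested (0%). The smallest adjusted p of any gene was 0.14 (limma). The study, with a test for raw counts, reports DEGs for SFRP2 siRNA in RAW264.7 cells. That limma on FPKM called 0 genes thus does not show that no gene changed. At an unadjusted p under 0.05 there were 2 members, Slc11a1 and Ireb2, against 18.5% of all genes (2220 genes). With voom on recovered reads 41 genes were called, none of them a member. Libraries of both groups did not overlap for these same 2 members, against 24.7% of all genes.

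Slc11a1 was lower by 0.20 on the log2 scale with SFRP2 siRNA (fitted log2 fold change -0.20, 95% interval -0.31 to -0.08, unadjusted p = 0.0052, adjusted p = 0.18, limma). For Ireb2 the log2 fold change was 0.19 (95% interval 0.01 to 0.38, unadjusted p = 0.038, adjusted p = 0.25). Tfrc had a log2 fold change of 0.16 (95% interval -0.004 to 0.32, adjusted p = 0.28). The ferritin genes gave -0.14 for Fth1 (95% interval -0.32 to 0.05, adjusted p = 0.37) and -0.19 for Ftl1 (95% interval -0.43 to 0.05, adjusted p = 0.36). The interval of Lcn2 was -0.34 to 0.14 and that of Slc40a1 was -0.28 to 0.50, so that changes of the size seen with RAB6A siRNA lie outside both. These intervals do not exclude small changes of any member. The ratio of Fth1 to Ftl1 was 19.2 ± 2.87 against 18.6 ± 2.36 in NC (exact permutation p = 0.8, adjusted p = 0.8).

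The SFRP2 and RAB6A siRNA groups were also compared with each other directly, since values against shared NC libraries are not independent. Of the 10 members, 8 were called, against 73.4% of all 12764 genes tested, 4 of them higher in the SFRP2 siRNA group (35.8% of all genes) and 4 lower (37.6%). With an absolute log2 fold change over 1 there were 3 members, against 31.1% of all genes, and 8 members had groups without overlap, against 77%. Tfrc was 3.67-fold higher in the SFRP2 siRNA group than in the RAB6A siRNA group (log2 fold change 1.88, 95% interval 1.70 to 2.06, adjusted p = 3.0e-06, limma). Steap3 (log2 fold change 0.87), Ireb2 (0.84) and Ncoa4 (0.51) were also higher there. Lcn2 was 5.31-fold lower (log2 fold change -2.41, 95% interval -2.65 to -2.16, adjusted p = 3.6e-06, limma), and Ftl1 (log2 fold change -1.74), Slc40a1 (-0.84) and Fth1 (-0.61) were lower as well. The log2 fold change was 0.02 for Slc11a1 (95% interval -0.20 to 0.23) and 0.03 for Slc11a2 (95% interval -0.10 to 0.16), neither of them called.

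Other genes of iron metabolism were taken from a list of 83 symbols grouped by role, of which 81 were in the table. In the RAB6A siRNA group against NC, 60 passed the filter. Of these, 30 were higher and 17 lower, against 37.6% and 36.5% of all genes, and no change of 13 was called. The share called was 78.3%, close to the 74.1% of all genes. Both the 17 and this share include Hfe, which passed the filter only through NC. The genes of the list had a median log2 fold change of 0.21, and all genes one of 0.03. With SFRP2 siRNA, 61 were tested and 0 were called with limma (12 at an unadjusted p under 0.05, or 19.7% against 18.5% of all genes), with a median of -0.07 against -0.01 for all genes.

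Of 11 genes of uptake and membrane transport tested, 6 were higher with RAB6A siRNA and 3 lower, against 37.6% and 36.5% of all genes. Slc25a37, which brings iron into mitochondria, had 22.2 ± 1.25 FPKM in NC and 69.9 ± 4.83 in the RAB6A siRNA group (log2 fold change 1.65, adjusted p = 2.0e-06, limma). Slc22a17, a receptor for lipocalin 2, had a log2 fold change of 1.28 (adjusted p = 1.5e-05). Abcb8, a mitochondrial ABC transporter, was lower, with a log2 fold change of -0.24 (adjusted p = 0.042). With SFRP2 siRNA the log2 fold changes were 0.09 for Slc25a37, 0.02 for Slc22a17 and -0.14 for Abcb8, none called.

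Export and systemic control held 3 genes above the filter. Of these, 2 were higher with RAB6A siRNA, against 37.6% of all genes, and Hfe is given without a test. Cp, coding for the ferroxidase ceruloplasmin that works with ferroportin, was at 2.22 ± 0.154 FPKM in NC and 9.90 ± 0.479 in the RAB6A siRNA group (log2 fold change 2.11, adjusted p = 1.4e-06, limma). Hamp, coding for hepcidin, the peptide that removes ferroportin from the membrane, was at 0.117, 1.03 and 1.61 FPKM in NC and at 18.3, 14.7 and 10.3 in the RAB6A siRNA group. Its log2 fold change of 4.24 (adjusted p = 9.3e-04) rests on an NC level that varied widely between libraries, from few reads, and Hamp has a near-identical paralog in mouse. Hfe, a partner of the transferrin receptor, was at 1.43 ± 0.142 FPKM in NC and 0.480 ± 0.207 in the RAB6A siRNA group (log2 fold change -1.45), and it passed the filter only through NC, so no p is given. With SFRP2 siRNA the log2 fold changes were 0.03 for Cp, -0.92 for Hamp and -0.19 for Hfe, none called.

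Among 6 regulators of the iron response, 3 were higher and 2 lower, against 37.6% and 36.5% of all genes. Fbxl5, coding for the iron-sensing ubiquitin ligase subunit that removes iron regulatory protein 2, rose from 4.79 ± 0.0846 FPKM in NC to 12.7 ± 0.828 (log2 fold change 1.39, adjusted p = 2.9e-06, limma). Bach1, a haem-binding repressor, had a log2 fold change of 1.37 (adjusted p = 2.1e-04). Aco1, coding for iron regulatory protein 1, had a log2 fold change of -0.79 (adjusted p = 1.3e-04) and was thus lower, as was Ireb2. Herc2, a large ubiquitin ligase, had -0.33 (adjusted p = 0.0053). None of these was called with SFRP2 siRNA, where the log2 fold changes were 0.03, 0.02, 0.02 and -0.09.

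Cytosolic iron chaperones gave 3 higher and 1 lower of 5, against 37.6% and 36.5% of all genes. Bola2, a partner of glutaredoxin 3, had a log2 fold change of 1.55 (adjusted p = 3.6e-06, limma) and Pcbp4 of 1.21 (adjusted p = 8.4e-05). Pcbp1, which delivers iron to ferritin, had 174 ± 6.08 FPKM in NC and 112 ± 6.84 in the RAB6A siRNA group (log2 fold change -0.64, adjusted p = 7.2e-05). With SFRP2 siRNA the values were -0.07 for Bola2, -0.24 for Pcbp4 and -0.17 for Pcbp1, none called.

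All 4 genes of haem degradation were called, against 74.1% of all genes. Of these, 3 were higher and 1 lower, against 37.6% and 36.5% of all genes. Hmox1, coding for the inducible haem oxygenase that frees iron from haem, was abundant, at 707 ± 71.2 FPKM in NC and 1185 ± 58.3 in the RAB6A siRNA group (log2 fold change 0.75, adjusted p = 2.2e-04, limma). The biliverdin reductase genes moved in opposite directions, Blvrb with a log2 fold change of 0.89 (adjusted p = 2.6e-05) and Blvra with -0.44 (adjusted p = 4.1e-04). With SFRP2 siRNA the log2 fold changes were -0.07 for Hmox1, -0.32 for Blvrb (unadjusted p = 0.0037, adjusted p = 0.18) and 0.02 for Blvra.

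Of 8 haem synthesis genes, 3 were higher and 2 lower, against 37.6% and 36.5% of all genes. Ppox, coding for a late mitochondrial enzyme of the pathway, had the highest log2 fold change of this role, at 1.81 (adjusted p = 1.4e-05, limma). Alas1, the first enzyme, had -0.35 (adjusted p = 0.0011) and Alad, the next one, -0.21 (adjusted p = 0.041). With SFRP2 siRNA the values were 0.05 for Ppox, 0.03 for Alas1 and -0.20 for Alad, none called.

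Iron-sulfur cluster assembly, the largest role with 23 genes tested, was split. Here 10 were higher and 7 lower, against 37.6% and 36.5% of all genes, with a median log2 fold change of 0.04. Hscb, a co-chaperone of cluster transfer, had a log2 fold change of 1.32 (adjusted p = 7.5e-06, limma) and Fdxr, which passes electrons to the mitochondrial ferredoxins, 1.28 (adjusted p = 5.0e-06). Hspa9, the mitochondrial HSP70 that works with Hscb, had 269 ± 11.1 FPKM in NC and 108 ± 11.4 in the RAB6A siRNA group (log2 fold change -1.32, adjusted p = 8.2e-06). Nubp2, a cytosolic scaffold, had -0.90 (adjusted p = 1.9e-05). With SFRP2 siRNA these 4 had log2 fold changes of -0.14, -0.22, -0.04 and -0.13, none called.

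**Figure D4:**
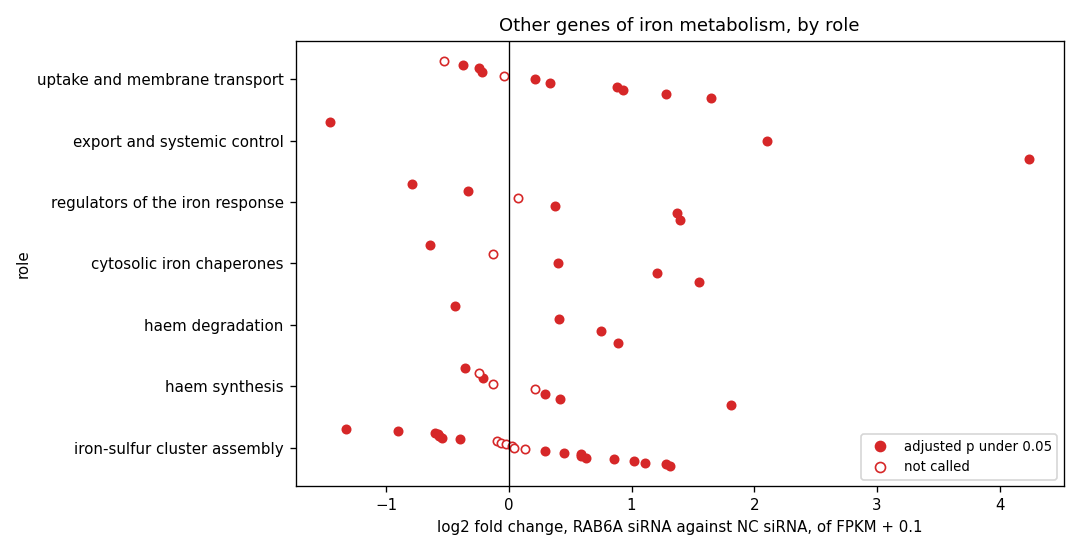
Log2 fold change, RAB6A siRNA against NC, on the log2(FPKM + 0.1) scale, for the 60 other genes of iron metabolism that passed the filter, in rows by role; filled points have an adjusted p under 0.05 (limma). Of these genes 30 lie to the right of 0 and 17 to the left among the filled points, with Hamp farthest right at 4.24. Hfe lies farthest left at -1.45 and passed the filter only through NC.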

How the data were processed

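For RAW264.7 cells, the values that the authors deposited are FPKM, 1 column a library, with Ensembl identifiers. HISAT2 and featureCounts (Subread) are named in the submitters' processing notes, with no version. The genome build and annotation are not given in the sources used here. The study's methods name a test for raw counts, which the FPKM values are not, so limma 3.58.1 in R 4.3.3 was used on log2(FPKM + 0.1). A fold change on this scale understates the change of low genes.

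Of 28137 identifiers, 27533 were named from GENCODE M21 and 604 had no name there. Genes with a mean of at least 0.5 FPKM over the 6 libraries of a comparison were fitted (eBayes with an intensity trend, Benjamini-Hochberg adjustment over all of them). A gene was called at an adjusted p under 0.05. Each comparison had 3 libraries a group. Groups came from the labels.

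Low FPKM values times exon length were whole multiples of a step, taken as 1 read. For 27081 genes (98.4%) the values were whole within 0.03 reads in all 9 libraries. These reads gave the depth, the shares of reads and the voom alternative. FPKM carries no correction for composition between libraries.

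Ratios were compared with exact two-sided permutation tests. Hairpins and shared 50-base windows were sought in GENCODE M21 transcripts with Python 3.11.15, and coordinates are those of GRCm38. Scripts were tested on simulated data.

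Genes named were the 10 members, Sfrp2 and Rab6a, ferritin copies above the filter, and in each role up to 2 highest and 2 lowest log2 fold changes of RAB6A siRNA against NC among called genes without overlap between the groups. Some genes that this rule names are not reported here. The members and lists were chosen with earlier results of these data known. Alternatives were pseudocounts of 1 and 0.01, no filter and a minimum of 1 FPKM, median-of-ratios scaling, quantile normalization, no trend, a replicate block, all 9 libraries in one fit, a natural spline (5 degrees of freedom) on GC content and on length, with and without the block, voom, and each library left out in turn.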

Additional observations from a re-analysis of the deposited data

How the results depend on the processing

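The number of members called and of other iron genes called stayed within 1.5 times the main count under all 54 alternatives run over the 3 comparisons. Where 8 of 10 members were called, only a fall could break this bound. The same held for the other iron genes, with 47 of 60 called, wherever a filter on low values was kept. Without a filter on low values, 7 members, 53 of 81 other iron genes and 40.4% of all genes were called for RAB6A siRNA against NC. Closeness to the share over all genes thus holds for genes above the filter. Genes called with SFRP2 siRNA against NC went from 0 to 41 with voom on recovered reads and were 0 to 1 with a library left out (1 without NC replicate 1). Of the refitted log2 fold changes of members, 20 changed sign, 6 lost the call and 7 gained one, 4 of these with a changed sign (Slc11a2 with the GC and length correction). With quantile normalization the values that changed sign were, for SFRP2 siRNA against NC, 0.10 for Fth1; for RAB6A siRNA against NC, 0.00062 for Slc11a2; and for SFRP2 against RAB6A siRNA, -0.058 for Slc11a2 and -0.033 for Slc11a1. With the GC and length correction they were -0.034 for Ncoa4, -0.0066 for Slc40a1 and 0.0029 for Lcn2 (SFRP2 siRNA against NC), 0.19 for Slc11a2 (RAB6A siRNA against NC), and -0.23 for Slc11a2 and -0.024 for Slc11a1 (SFRP2 against RAB6A siRNA), and the same with the replicate block added. With a library left out, Ncoa4 with SFRP2 siRNA against NC was -0.011 to 0.079 (below 0 without NC replicate 1 or SFRP2 siRNA replicate 2). For SFRP2 against RAB6A siRNA, Slc11a2 was -0.0019 to 0.045 (below 0 without RAB6A siRNA replicate 2) and Slc11a1 -0.075 to 0.094 (below 0 without RAB6A siRNA replicate 3). Fth1 lost its call without a filter on low values (adjusted p 0.21 against NC, 0.13 against SFRP2 siRNA), and Ncoa4 with the GC and length correction (0.059 and 0.12). Slc11a1 gained a call against NC with all 9 libraries in one fit (0.038), with voom (0.038) and without RAB6A siRNA replicate 1 (0.020). The causes were not tested. The difference of the Fth1 to Ftl1 ratio between SFRP2 siRNA and NC was -0.78 to 2.08 with a library left out.

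Same-numbered libraries did not deviate together: the correlation of their deviations from the group means was -0.08 to 0.05 over 9 pairs, with 0 over 0.1, so the numbers were not taken to pair the libraries. With the number as a block, 4649 genes were higher and 4454 lower for RAB6A siRNA against NC, and 0 were called for SFRP2 siRNA against NC. The block alone changed no call of a member. Depth limits Sfrp2, at 2 to 4 reads per library, and Hamp in NC.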
